A study of Saccharomyces cerevisiae with 17 samples.

Results

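The histone genes of *Saccharomyces cerevisiae* were followed across strains in which nucleosome-remodelling or RNA-decay factors were deleted or an engineered remodeler was added. They were chosen by gene function and not by measured values, though with earlier results of these data known. The set comprised 10 of the 6644 genes present in both deposited tables. The 8 core genes are *HTA1* and *HTA2* for histone H2A, *HTB1* and *HTB2* for H2B, *HHT1* and *HHT2* for H3, and *HHF1* and *HHF2* for H4. *HHO1* encodes the linker histone H1, and *HTZ1* encodes the H2A variant H2A.Z. All 10 passed the low-value filter and were among the 6241 genes fitted.

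Core histones form the protein octamer around which nuclear DNA is wound, and linker histone binds the DNA between nucleosomes. In budding yeast the core genes lie in divergent pairs that share a promoter, and they are transcribed mainly in S phase under the control of the Spt10 and Spt21 activators, the SBF and MBF factors and the repressive HIR complex. *HTZ1* has no partner gene, and H2A.Z is placed into nucleosomes next to promoters by the SWR1 complex. Histone mRNA is also controlled by decay, and the nuclear exosome subunit Rrp6 has been linked to its turnover.

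Total RNA from cells of the W303 background, depleted of ribosomal RNA, was sequenced from 10 groups of strains grown to an OD600 of 0.4 to 0.6. Wild type carried no deletion and no fusion. Single deletions removed *ume6* (a repressor that binds the URS1 element), *isw2* (a remodeler of the ISWI family), *rpd3* (a histone deacetylase) or *rrp6* (an exonuclease of the nuclear exosome). The *isw2 rpd3* double deletion was labelled as a prototrophic W303 strain, so its nutritional markers differ from those of the other groups and cannot be told apart from its deletions. Chd1-Ume6 joins the nucleosome-sliding enzyme Chd1 to the DNA-binding part of Ume6. It was present in wild type, in *ume6* and in *rrp6* cells, and a catalytically dead version was present in *ume6* cells as a control. The promoter that drives the fusion is not given in the labels. The design asks how repositioned nucleosomes affect transcription in these backgrounds.

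The deposited files held 15 columns for 17 labelled libraries. Wild type was 1 column, whose digits fit a mean made by the authors, so it is given with no error. *isw2*, *rpd3*, *isw2 rpd3* and the inactive fusion in *ume6* also had 1 column each, all in the first table. Each table held 1 column of *ume6*, 1 of its strain with Chd1-Ume6, and 1 of wild type cells with Chd1-Ume6. *rrp6* and Chd1-Ume6 in *rrp6* each had 2 columns in the workbook, numbered 1 and 2. Nothing in the labels says that numbered isolates were separate cultures. Each p-value below sets a difference between groups against the spread between columns of a group, and that spread may be technical. Groups with 1 column add nothing to it, so their own variation was not measured. Levels are FPKM, fragments scaled by transcript length and library size, and their sum over genes ranged from 889031 to 1132648 per column. Read depth is unknown because the files hold no counts.

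*ISW2*, *RPD3* and *RRP6* were at or near 0 in the columns labelled as their deletions, with *ISW2* and *RPD3* at no more than 0.110 FPKM and *RRP6* at no more than 1.68 FPKM or missing. *UME6* was at 0.0536 FPKM or missing in the *ume6* columns without a fusion. In the 3 *ume6* columns with a fusion, which itself carries part of Ume6, it was at 65.5, 73.4 and 113 FPKM, so it does not check the deletion there. *CHD1* lay between 276 and 1608 FPKM in the 7 columns with a fusion and between 22.4 and 39.1 FPKM in the 8 without it. Some columns stood apart by whole chromosomes. The median gene of chromosome XVI, relative to the other chromosomes, lay 0.89 to 0.94 log2 units above the reference column of its table in the 4 columns of *ume6* and Chd1-Ume6 in *ume6*. It lay 0.61 above in the inactive fusion column and 0.96 above in *rrp6* number 2. Chromosome IX lay 0.95 and 0.94 above in the Chd1-Ume6 in *ume6* columns, and chromosome III lay 0.92 above in the workbook column of *ume6*. Wild type was the reference for the first table and Chd1-Ume6 in wild type for the workbook. *HHO1* is on chromosome XVI, so its values are given below beside those of its chromosome. DNA copy number was not measured here. The other 9 histone genes lie on chromosomes II, IV, XIV and XV, whose medians stayed between -0.13 and 0.07 in every column.

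The members of each core pair are near-copies, and this limits how well reads can be assigned to either of them. In the reference genome R64 of strain S288C, *HHF1* and *HHF2* were 97.4% identical over 312 coding bases, and 21.3% of the 50-base windows of one occurred unchanged in the other. *HTA1* and *HTA2* were 93.7% identical, with 4.57% of windows shared. *HHT1* and *HHT2* were 93.2% identical, with 12.2% of windows shared. *HTB1* and *HTB2* were the most different pair, at 87.9% identity with 0 of 347 windows shared. Values of single copies are therefore uncertain wherever reads fell in shared stretches, least so for the H2B genes. Sums over the copies of a histone avoid this only if reads matching both copies were kept, which is not stated. The build used by the authors is not given in the sources used here, and genes were matched to R64 by systematic name alone. The first 90 coding bases of the H2B genes are shown because results below turn on telling these copies apart, with the 18 differing bases in capitals.
HTB1, chrIV:914623-914712, minus strand: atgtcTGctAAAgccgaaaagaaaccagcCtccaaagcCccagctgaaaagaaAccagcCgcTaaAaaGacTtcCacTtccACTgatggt
HTB2, chrII:236492-236581, plus strand: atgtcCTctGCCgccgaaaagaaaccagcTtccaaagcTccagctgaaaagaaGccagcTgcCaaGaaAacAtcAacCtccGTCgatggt

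Each of the 4 shared promoters held at least 1 match to the paired Spt10 element, searched on both strands as TTCC, any 6 bases, then TTC. The matches are shown with 8 bases on either side because they mark the control region that the members of a pair share. The motif itself is in capitals.
HTB1 and HTA1, chrIV:915106-915134, plus strand: tagcgctgTTCCAAAATTTTCgcctcact
HTB1 and HTA1, chrIV:915131-915159, minus strand: acactccaTTCCAATAGCTTCgcacagtg
HTA2 and HTB2, chrII:236102-236130, minus strand: gtaaggtgTTCCCATTATTTCtcaaagtg
HHF1 and HHT1, chrII:255938-255966, minus strand: taaaactgTTCCGAGCGCTTCtccccata
HHT2 and HHF2, chrXIV:576340-576368, minus strand: gttgtccgTTCCGAGCACTTCgcattaag
The shared regions were 646 to 817 bases long. Of 359 divergent intergenic regions of 600 to 900 bases in the genome, 25.9% held the motif. None of the 10 genes had it in the window from 250 bases before to 50 bases after the start codon, against 7.80% of 6001 promoters. The core of URS1, GCCGCC, occurred in 0 of the 4 shared regions and, in the 300-base windows, in *HTB2* alone, where it falls in the first coding bases, against 5.13% of 6001 promoters. The authors' motif entry, whose motif the header does not name, was "no" for all 10 genes. A match describes these letters only.

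The histone RNAs differed in level by gene more than by strain. *HHT2* was highest, with a median of 1385 FPKM over the 15 columns, and *HHO1* was lowest, with a median of 109.5 FPKM. Between them by median came *HHT1*, *HTA1*, *HHF2*, *HTB1*, *HHF1*, *HTB2*, *HTA2* and *HTZ1*. *HHT2* exceeded *HHT1* in 15 of 15 columns, and *HTA2* exceeded *HTZ1* in 15 of 15. Neighbours from *HTA1* to *HTA2* exceeded the next gene in only 9 to 11 columns, so their order was not separated beyond the spread over columns. *HTZ1* and *HHO1* could not be ordered either, since *HTZ1* was the higher in 7 of 15. In fold terms the highest column exceeded the lowest by 1.80 for *HHF1*, 1.81 for *HHF2*, 1.85 for *HHT1*, 1.92 for *HTZ1* and 1.95 for *HHT2*. That ratio was 2.30 for *HTB2*, 2.31 for *HTB1*, 2.66 for *HTA1*, 2.68 for *HTA2* and 3.35 for *HHO1*. The median of this ratio was 2.70 over all genes tested and 2.54 over the 1183 genes with a median level of at least 100 FPKM. *HHO1* exceeded both medians, and *HTA1* and *HTA2* exceeded the second.

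**Figure D1:**
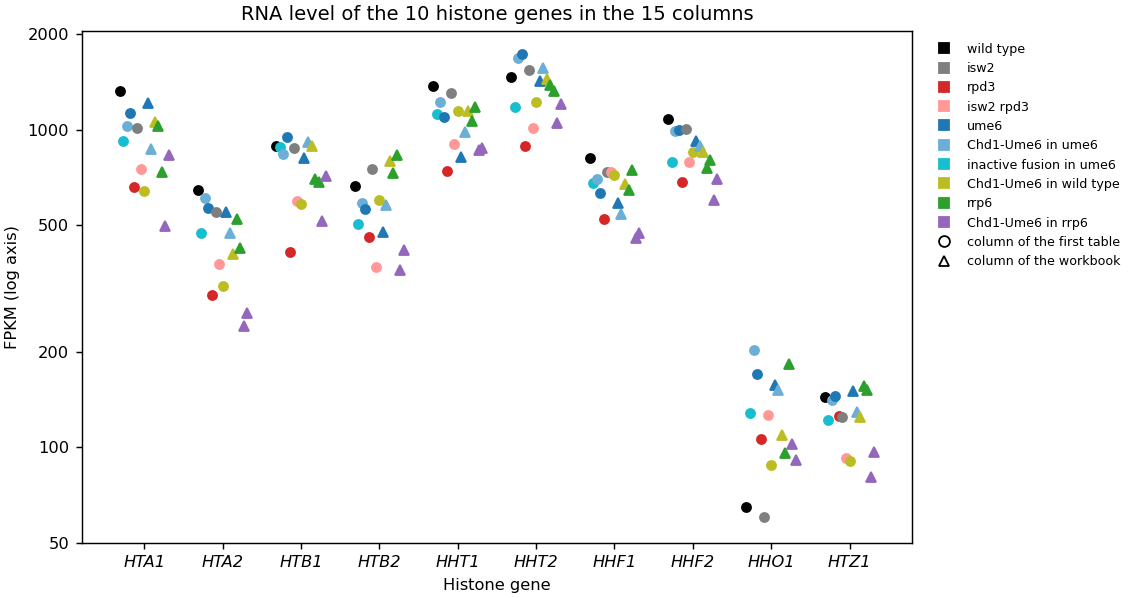
Level of each of the 10 histone genes (FPKM, log axis) in each of the 15 columns, colored by group, with circles for the first table and triangles for the workbook. The *rpd3* column is the lowest circle for *HTA2*, *HTB1*, *HHT1*, *HHT2*, *HHF1* and *HHF2*, and *HHO1* is lowest in *isw2* and wild type.

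The *rpd3* deletion gave the lowest summed core histone RNA of the first table, at 4676 FPKM against 8269.7 in wild type. Core estimates were lower than in wild type for 8 of 8 genes, by 0.54 to 1.11 log2 units and under all 3 other scalings tried, with a median of -0.80 where the median of all genes was -0.09. Of all genes tested, 58.2% had lower estimates. The estimate for *HHO1* was above 0. At a limma adjusted p under 0.05, 0 of the 10 genes passed, where 0.881% of all genes did, and 6 core genes were lower at an unadjusted p under 0.05, where 6.6% of all genes were. Bulk RNA cannot tell less RNA per cell apart from fewer cells in the phase that makes it.

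*HTB1* stood at 412 FPKM in *rpd3*, against 889.5 in the authors' wild type mean and 596 in *isw2 rpd3*. *HTB1* lay between 585 and 950.3 FPKM in the other 5 columns of the first table, so *rpd3* was its lowest. The estimated log2 difference was -1.11 ± 0.36 (SE, 95% interval -1.93 to -0.29), a 2.16-fold lower level, with limma adjusted p = 0.256. *HTA2*, the minor H2A gene, was at 302 FPKM in *rpd3* and at 647 in the wild type mean. Its log2 difference was -1.09 ± 0.32, with limma adjusted p = 0.200. *HTA1*, its more abundant copy, was at 659 FPKM in *rpd3* and at 1324 in wild type, a difference of -1.01 ± 0.46 (limma adjusted p = 0.453).

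The H3 and H4 genes lay lower by smaller amounts. *HHT1* was at 743 FPKM in *rpd3* against 1372 in wild type, and its difference was -0.88 ± 0.27 (limma adjusted p = 0.218). *HHT2* was at 888 against 1469 FPKM, a difference of -0.73 ± 0.28 (limma adjusted p = 0.376). *HHF1* was at 524 against 818 FPKM and *HHF2* at 688 against 1084 FPKM, with differences of -0.64 ± 0.27 and -0.66 ± 0.26 (limma adjusted p = 0.403 and 0.382). *HTB2* had the smallest difference of the core genes, at 459 against 666 FPKM (-0.54 ± 0.31, limma adjusted p = 0.567). As a share of all FPKM, core histone RNA was 0.436% in *rpd3*, the lowest of the 15 columns, and 0.730% in wild type.

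*HTZ1* was at 125 FPKM in *rpd3* against 144 in wild type, a difference of -0.20 ± 0.30. Its 95% interval of -0.90 to 0.49 includes the core median of -0.80, and whether it differed from the core genes was not tested. *HHO1* was at 106 FPKM against 64.6, a difference of 0.71 ± 0.45 (limma adjusted p = 0.605). The other genes of chromosome XVI had a median of -0.10 in this comparison, near the -0.10 of the other chromosomes. *HHO1* exceeded 93.0% of the 455 genes of its own chromosome. With each gene centred on its chromosome, its difference was 0.72 ± 0.30 (limma adjusted p = 0.373).

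In the *isw2 rpd3* double deletion the core estimates were again below wild type in 8 of 8 genes, where 45.8% of all genes tested had lower estimates, but in only 6 of 8 after quantile normalization and 7 of 8 after scaling to a common sum. Their median was -0.59, against 0.06 for all genes, and it came to -0.12 after quantile normalization. *HTB2* had the largest core difference, at 369 FPKM against 666 in wild type (-0.85 ± 0.31, limma adjusted p = 0.173). *HTA1* followed at 755 against 1324 FPKM (-0.81 ± 0.46, limma adjusted p = 0.377). *HHF1* was nearly level, at 739 against 818 FPKM, with an estimate of -0.15 that became 0.30 after quantile normalization and 0.15 after scaling to a common sum.

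*HTZ1* stood at 92.8 FPKM, below the wild type level of 144 (-0.63 ± 0.30, limma adjusted p = 0.297). *HHO1* stood at 127 FPKM, above the 64.6 of wild type by 0.96 ± 0.45 (limma adjusted p = 0.282), while the other genes of chromosome XVI had a median of 0.03. In limma's adjusted test 0 of the 10 genes passed, where 3.8% of all genes did, and 2 were lower at an unadjusted p under 0.05, where 9.71% of all genes were. The columns of *rpd3* and *isw2 rpd3* both lay below every other first-table column for 3 core genes, *HTB2*, *HHT1* and *HHT2*, and 13.7% of all genes did the same. Against *rpd3* itself, the double deletion gave 0 genes past limma's adjusted test and 0 at an unadjusted p under 0.05. All genes passed these at 0.417% and 6.83%, and the median core estimate was 0.24 where all genes had 0.14. The comparisons of *rpd3* and of the double deletion with wild type share the 1 wild type column.

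Deletion of *isw2* alone left the core histones close to wild type. The median core estimate was -0.09, which became 0.09 after quantile normalization and 0.05 after scaling to a common sum. *HTA1* had the largest difference, at 1013 FPKM against 1324 in wild type (-0.39 ± 0.46, 95% interval -1.44 to 0.67). No histone gene passed limma's adjusted test, where 0.016% of all genes did, and none had an unadjusted p under 0.05, where 1.31% of all genes did. The interval of *HTA1* still includes a 2-fold lower level, so a change of that size was not excluded at this replication. *HHO1* was at 60.2 FPKM, next to the 64.6 of wild type.

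**Figure D2:**
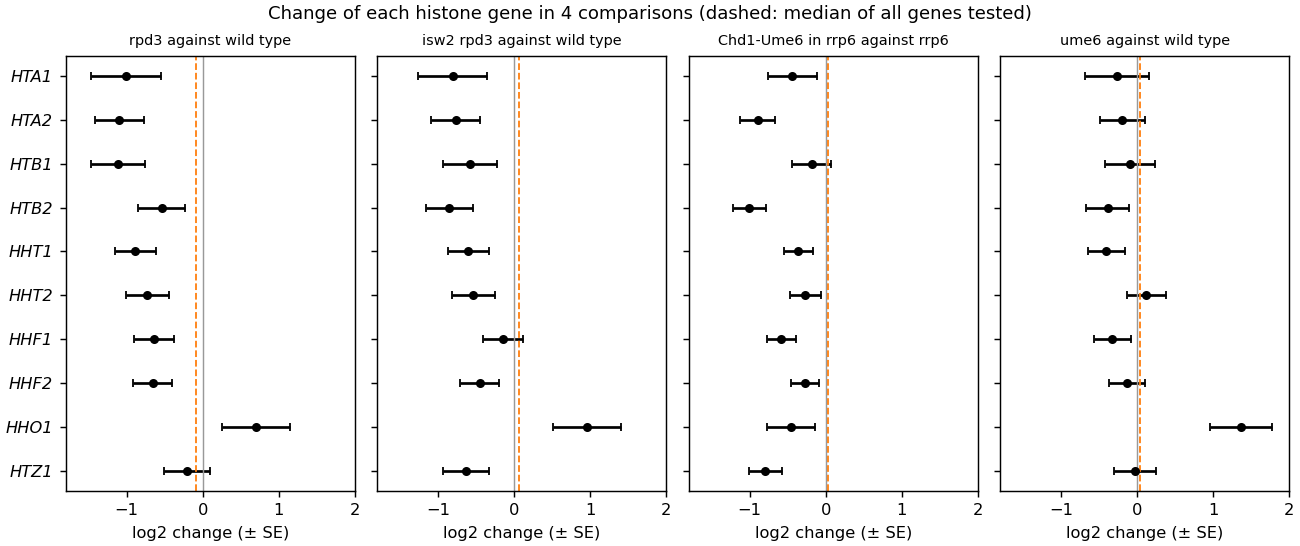
Estimated log2 change (points, with bars of ± 1 SE from limma) of each histone gene in 4 comparisons, with a dashed line at the median of all genes tested. The 8 core genes lie left of 0 in *rpd3*, in *isw2 rpd3* and in Chd1-Ume6 in *rrp6* against *rrp6*, and *HHO1* lies right of 0 in both *rpd3* deletions and in *ume6*. After quantile normalization 6 of 8 were lower in *isw2 rpd3* and 7 of 8 in the *rrp6* comparison.

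Chd1-Ume6 in *rrp6* cells went with lower histone values than *rrp6* alone, with 2 columns on each side. Estimates were lower for 10 of 10 genes, where 46.5% of all genes were lower, and for 9 of 10 after quantile normalization, without *rrp6* number 2, or without Chd1-Ume6 in *rrp6* number 1. The median core estimate was -0.40 against 0.03 for all genes, and -0.20 against -0.05 after quantile normalization. The columns of the groups did not overlap for 7 of the 10 genes, each lower with the fusion, and 14.7% of all genes showed such a lower split of 2 columns against 2. Of the 10, 0 passed limma's adjusted test, where 0.705% of all genes did, but 4 were lower at an unadjusted p under 0.05, where 3.99% of all genes did. These were *HTB2*, *HTA2*, *HTZ1* and *HHF1*.

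*HTB2* was at 731 and 836 FPKM in *rrp6* and at 363 and 419 FPKM with Chd1-Ume6. Both fusion columns lay below every other column of the workbook. The log2 difference was -1.002 ± 0.22 (95% interval -1.50 to -0.50), a 2.00-fold lower level, with limma adjusted p = 0.0905. Only 0.929% of genes had a lower estimate.

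*HTA2*, which shares its promoter with *HTB2*, was at 523 and 424 FPKM in *rrp6* and at 241 and 266 with the fusion. The groups were again apart, with a log2 difference of -0.89 ± 0.23 (limma adjusted p = 0.123). *HTZ1* was at 156 and 152 FPKM in *rrp6* and at 80.8 and 96.5 with the fusion, a difference of -0.79 ± 0.21 (limma adjusted p = 0.138). *HHF1*, an H4 gene, was at 648 and 746 against 455 and 472 FPKM, a difference of -0.58 ± 0.19 (limma adjusted p = 0.194). The adjusted p of *HTB2* ranged from 0.0573 to 0.372 over the alternative settings, so it crossed the threshold under none of them.

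The other core genes had smaller differences or overlapping columns. *HHT1* was at 1065 and 1179 FPKM in *rrp6* and at 864 and 878 with the fusion, and *HHT2* at 1385 and 1327 against 1048 and 1211. *HHF2* was at 761.5 and 805 against 599.99 and 699 FPKM. These 3 genes were apart between the groups, by smaller amounts than the 4 above. *HTA1* was at 1031 and 735 FPKM in *rrp6* and at 497 and 833 with the fusion, so its groups overlapped. *HTB1*, the partner gene of *HTA1*, was at 699 and 684 against 515 and 718 FPKM and also overlapped, with a difference of -0.18 that became 0.05 without Chd1-Ume6 in *rrp6* number 1.

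The *HHO1* values of these columns lay beside those of its chromosome. It was at 95.9 and 183 FPKM in *rrp6* and at 102 and 91.0 with the fusion, so the single high value was *rrp6* number 2, the column in which chromosome XVI stood 0.96 above the rest. Its difference of -0.45 lay beside a median of -0.41 for the other chromosome XVI genes. Without *rrp6* number 2 the difference of *HHO1* was 0.0088.

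Chd1-Ume6 in *rrp6* was also compared with Chd1-Ume6 in wild type, which carries the same fusion. *HTB2* was at 601 and 798 FPKM in the latter, above both columns of the former. The log2 difference was -0.85 ± 0.24, with limma adjusted p = 0.0789, the lowest of any member in any comparison. *HTA2* was at 323 and 406 FPKM in Chd1-Ume6 in wild type, also above both columns of Chd1-Ume6 in *rrp6*, with a difference of -0.50 ± 0.25 (limma adjusted p = 0.312). The median core estimate was -0.40 against 0.08 for all genes. Without the workbook column of Chd1-Ume6 in wild type, the difference was -0.49 for *HTB2* and -0.15 for *HTA2*, and the core median was -0.09. Limma's adjusted test was passed by 0 of the 10 genes, where 5.75% of all genes did, and 2 were lower at an unadjusted p under 0.05, where 3.27% of all genes were.

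Within the workbook, the columns of Chd1-Ume6 in *rrp6* lay below all 5 other columns for 6 of the 10 genes, *HTA2*, *HTB2*, *HHF1*, *HHF2*, *HHT2* and *HTZ1*, where 2.74% of all genes did. *SPT10*, the activator of the core promoters shown above, was higher in Chd1-Ume6 in *rrp6* than in Chd1-Ume6 in wild type by 0.92 ± 0.21 (limma adjusted p = 0.0407). *SPT10* was the only gene of the 9 histone regulators past the threshold in any of the 14 comparisons. In the comparison where it passed, 5.75% of all genes did.

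In *rrp6* cells without the fusion, core histones had a median estimate of -0.22 against wild type, where all genes had 0.14. This core value became 0.18 after quantile normalization and 0.02 after scaling to a common sum. *HTA1* was at 1031 and 735 FPKM against the wild type mean of 1324, a difference of -0.80 ± 0.48 (limma adjusted p = 0.574). *HHO1* had the largest estimate, 1.10 ± 0.47 (limma adjusted p = 0.411), where the other chromosome XVI genes had a median of 0.62. Without *rrp6* number 2 its estimate was 0.63. No histone gene passed limma's adjusted test, where 0.433% of all genes did, and 1 had an unadjusted p under 0.05, *HHO1*, where 11.7% of all genes did. Wild type and *rrp6* are in different tables, so they are linked through the 3 groups that both tables hold.

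Chd1-Ume6 in wild type cells had core estimates with a median of -0.22 against wild type, where all genes had 0.08. The core value became 0.18 after quantile normalization and 0.06 after scaling to a common sum. The H2A genes had the lowest estimates. *HTA2* was at 323 and 406 FPKM with the fusion against the wild type mean of 647, a difference of -0.82 ± 0.29 (limma adjusted p = 0.526). *HTA1* was at 642 and 1057 FPKM against 1324, a difference of -0.78 ± 0.42 (limma adjusted p = 0.629). Both columns lay below wild type for both genes, but the *HTA1* columns differed from each other by 0.72 log2 units.

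*HTZ1* was at 90.7 and 125 FPKM against 144 in wild type (-0.50 ± 0.28). *HHO1* was at 87.9 and 109.5 FPKM against 64.6, a difference of 0.63 ± 0.41 (limma adjusted p = 0.684), and it exceeded 93.0% of the other chromosome XVI genes, whose median was 0.09. *HTB2*, the divergent partner of *HTA2*, was at 601 and 798 FPKM, on either side of the wild type mean of 666. Limma's adjusted test was passed by 0 of the 10, where 0.016% of all genes did. *HTA2* alone had an unadjusted p under 0.05, where 8.6% of all genes did.

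The effect of the fusion was compared between backgrounds with an interaction term. For *rrp6* minus wild type cells the estimate for *HTB2* was -1.03 ± 0.36 (95% interval -1.85 to -0.22, limma adjusted p = 0.374). For *HHO1* the interaction was -1.08 ± 0.52, where the other chromosome XVI genes had a median of -0.53. This interaction passed limma's adjusted test for 0 of the 10 genes, where 0.032% of all genes did, and 1 had an unadjusted p under 0.05, where 9.95% of all genes did. For *ume6* against wild type backgrounds the largest core interaction was that of *HTA2*, at 0.76 ± 0.37 (limma adjusted p = 0.882). There, 0 of the 10 passed limma's adjusted test, where 0% of all genes did, and none had an unadjusted p under 0.05, where 6.33% of all genes did. The median core interaction of 0.30 became -0.04 after quantile normalization and -0.001 after scaling to a common sum.

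In *ume6* against wild type the core histone estimates had a median of -0.23, where all genes had 0.04, which became 0.11 after quantile normalization and 0.12 after scaling to a common sum. *HHT1* had the largest core difference, at 1098 and 824 FPKM against the wild type mean of 1372 (-0.41 ± 0.25, limma adjusted p = 0.416). *HHT2* was at 1731 and 1429 FPKM against 1469, on either side of wild type. Over the alternative settings the *HHT1* estimate ran from -0.58 to -0.0056, that of *HHT2* from -0.11 to 0.81 and that of *HTB2* from -0.67 to -0.04. None of the 10 genes passed limma's adjusted test, where 2.13% of all genes did. *HHO1* alone had an unadjusted p under 0.05, where 19.3% of all genes did.

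*HHO1* was the histone gene with the largest estimate in *ume6*. It was at 171 and 157 FPKM in *ume6*, at 202 and 152 in Chd1-Ume6 in *ume6*, and at 129 with the inactive fusion. The authors' wild type mean was 64.6. Every other column except *isw2*, at 60.2 FPKM, was above that mean, so being above wild type does not set the *ume6* columns apart, and *rrp6* number 2, at 183 FPKM, lay among them. The log2 difference of *ume6* from wild type was 1.36 ± 0.41 (95% interval 0.43 to 2.30, limma adjusted p = 0.120).

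The genes of chromosome XVI stood high in the same columns. The other 455 fitted genes of that chromosome had a median of 0.88 in *ume6* against wild type, the genes of the other chromosomes had -0.01, and *HHO1* exceeded 83.3% of its chromosome. With each gene centred on its chromosome in each column, the *HHO1* difference was 0.52 ± 0.28 (limma adjusted p = 0.362). Leaving out either *rrp6* column brought the adjusted p of the uncentred value to 0.0479 (number 1) or 0.0481 (number 2) with the estimate unchanged at 1.36. *HHO1* differed by 0.92 log2 units between the *rrp6* columns, and the part of that gap in the adjusted p was not tested. Relative to Chd1-Ume6 in wild type, the workbook reference, *HHO1* exceeded 27.7% of its chromosome in the workbook column of *ume6*. It exceeded 13.8% in the workbook column of Chd1-Ume6 in *ume6*. Its place above most of its chromosome therefore held against wild type and not against the workbook reference. The part of the chromosome in the *HHO1* value was not tested further.

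**Figure D3:**
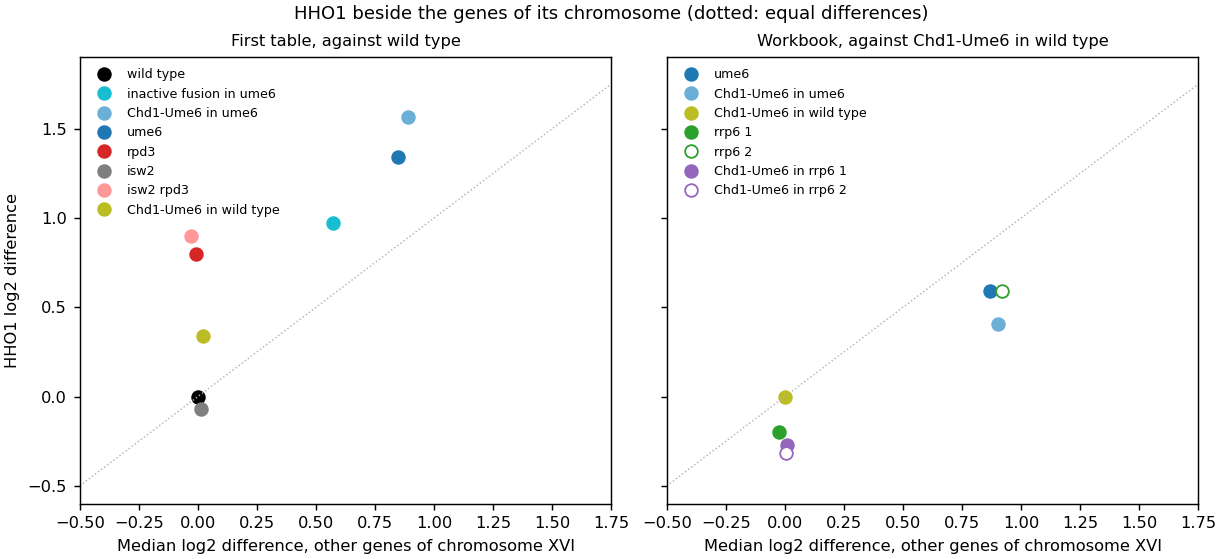
Log2 difference of *HHO1* (vertical) against the median log2 difference of the other chromosome XVI genes (horizontal) in each column, relative to wild type in the first table and to Chd1-Ume6 in wild type in the workbook and to the median gene, with a dotted line of equal differences. The columns without native *UME6* and *rrp6* number 2 lie at 0.57 to 0.92 on the horizontal axis, while *rpd3* and *isw2 rpd3* lie near 0 there and at 0.80 and 0.90 on the vertical axis.

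Among *ume6* cells, Chd1-Ume6 in *ume6* against *ume6* gave a median core estimate of 0.00 where all genes had 0.06, and the estimates ran from -0.31 to 0.21. The lowest was that of *HTA1*, at 1033 and 872 FPKM against 1130.5 and 1219.6 FPKM in *ume6*, a difference of -0.31 ± 0.32 (95% interval -1.05 to 0.44) that became 0.02 without the workbook column of the fusion. None of the 10 genes passed limma's adjusted test, where 0.224% of all genes did, and none had an unadjusted p under 0.05, where 9.36% of all genes did. The inactive fusion against *ume6* gave a median core estimate of -0.13 where all genes had -0.03. *HHT2* differed by -0.44 ± 0.26 (95% interval -1.03 to 0.16) and *HHO1* by -0.38 ± 0.41, where the other chromosome XVI genes had a median of -0.32. Without the first-table column of *ume6* the *HHT2* value was -0.20. There too, none of the 10 genes passed limma's adjusted test, where 0.0481% of all genes did, and none had an unadjusted p under 0.05, where 7.35% did.

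The active and the inactive fusion were compared in *ume6* cells. *CHD1* was at 1608 FPKM with the inactive and at 836 and 1075 with the active fusion, and *UME6* at 113 against 65.5 and 73.4. Chromosome IX stood 0.02 above the reference with the inactive fusion and 0.95 and 0.94 with the active one, and chromosome XVI 0.61 against 0.93 and 0.94. The part of these differences in the histone values was not tested. *HHT2* was at 1681 and 1572 FPKM with the active and at 1180.1 with the inactive fusion, a difference of 0.48 ± 0.26 (95% interval -0.11 to 1.08, limma adjusted p = 0.448). *HHO1* was at 202 and 152 FPKM against 129, a difference of 0.48 ± 0.41 (limma adjusted p = 0.676), where the other chromosome XVI genes had a median of 0.42. None of the 10 genes passed limma's adjusted test, where 0.353% of all genes did, and none had an unadjusted p under 0.05, where 14.2% of all genes did. The median core estimate was 0.14, against 0.09 for all genes. The inactive fusion had 1 column, so its spread was taken from the other groups.

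Ratios between histone genes within a column are unaffected by multiplying a whole column by a factor, but not by quantile normalization. H3 RNA exceeded H4 RNA in 15 of 15 columns, by a ratio of summed FPKM between 1.25 and 1.81. Summed H2A over summed H2B lay between 0.762 and 1.37 and was above 1 in 8 of 15 columns. How reads matching both copies of a histone were counted is not known. Shared windows were 21.3% for H4, 12.2% for H3, 4.57% for H2A and 0% for H2B, and their part in these sums was not tested. *HTA1* exceeded *HTA2* in 15 of 15 columns, 1.70 to 3.13 times, *HHT2* exceeded *HHT1* 1.05 to 1.73 times, and *HHF2* exceeded *HHF1* 1.07 to 1.64 times.

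The H2B genes were the only copies whose order differed among the 15 columns. *HTB2* over *HTB1* was 0.749 in wild type, 0.860 in *isw2* and 0.619 in *isw2 rpd3*. It was above 1 in 4 columns, at 1.12 in *rpd3*, 1.05 and 1.22 in *rrp6*, and 1.03 in the first-table column of Chd1-Ume6 in wild type. In the 5 columns without native *UME6* it lay between 0.573 and 0.705, and in the 10 columns with *UME6* between 0.584 and 1.22, so the ranges overlapped at the low end. Chd1-Ume6 in *rrp6* accounted for part of that overlap, at 0.705 and 0.584, below both *rrp6* columns.

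Divergent partners also varied relative to each other. *HTB2* over *HTA2*, genes that share a promoter, ranged from 0.865 in the workbook column of *ume6* to 1.97 in *rrp6* number 2. The ratio was 1.03 in wild type and 0.865 to 1.23 in the 5 columns without native *UME6*. Chd1-Ume6 in wild type was high at 1.86 and 1.97, and Chd1-Ume6 in *rrp6* stood at 1.51 and 1.58, within the 1.40 and 1.97 of *rrp6*. These ratios were read off the columns and not tested.

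**Figure D4:**
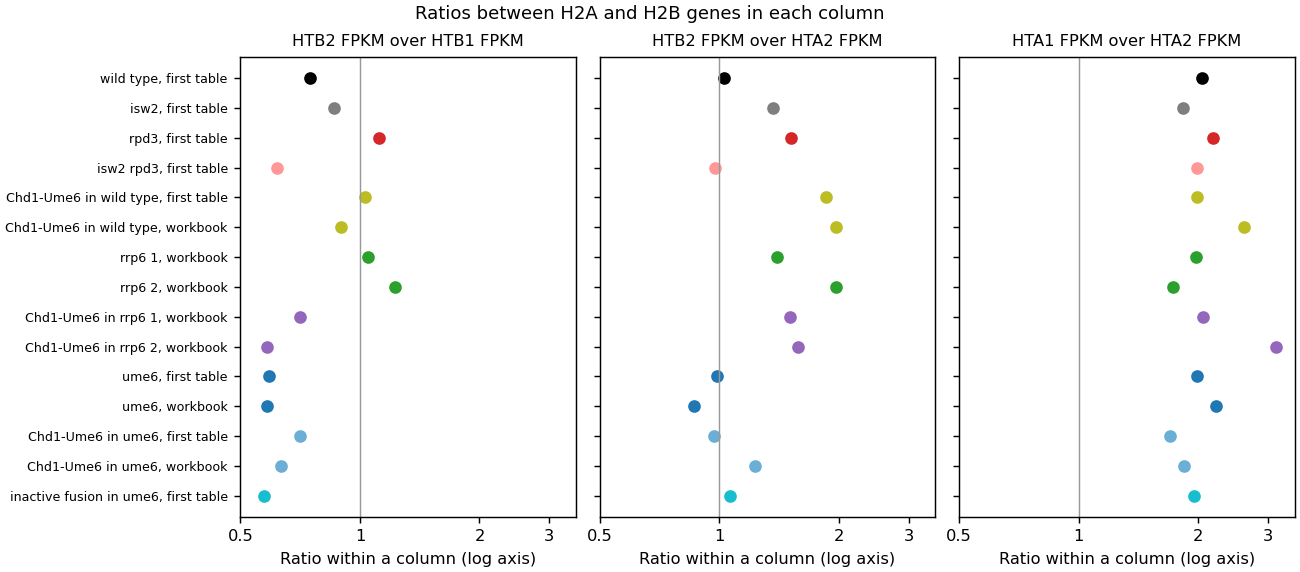
Ratios of FPKM within each of the 15 columns (log axes, vertical line at 1) for *HTB2* over *HTB1*, *HTB2* over *HTA2* and *HTA1* over *HTA2*. *HTB2* exceeded *HTB1* in 4 columns, and the highest *HTA1* over *HTA2* was 3.13 in Chd1-Ume6 in *rrp6* number 2.

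The special histones kept different proportions to the core. *HTZ1* RNA was 6.83% of the H2A family in wild type, the lowest column, and up to 11.6% in *rrp6* number 2 and 11.5% in *rpd3*. *HHO1* RNA was 6.17% of the mean core gene in *isw2* and 6.25% in wild type. It was 18.1% in *rpd3*, 18.3% in *isw2 rpd3* and 21.7% in *rrp6* number 2. The remaining columns lay between 11.2% and 21.1%, so wild type and *isw2* stood below all others.

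Core histone genes had positive correlations with each other across the 15 columns. After centring within each table, the correlation of log2(FPKM + 1) over the columns had a median of 0.79 for genes that share a promoter, 0.65 for copies of the same histone and 0.66 for the other core pairs. It was 0.90 for *HHT2* with *HHF2* and 0.59 for *HTA2* with *HTB2*, the highest and lowest of the 4 promoter-sharing pairs. Each core gene correlated with the mean of the other core genes at 0.67 (*HHF1*) to 0.91 (*HHF2*). *HTZ1* correlated with the core mean at 0.74 and *HHO1* at 0.07. These correlations are descriptions over columns that share strains and tables. Columns were not rescaled for them, and no values for pairs of other genes are given beside them.

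The non-histone genes most like the core mean by the same measure were *SCS7* (r = 0.89), *TOM22* (0.84), *FDC1* (0.79), *PTC3* (0.79) and *YPT7* (0.79). They lie on chromosomes II, IV, XIII and XIV. The 5 genes most like *HHO1*, a search added after the values were seen, were *MLH3* (r = 0.96), *GYP5*, *EAF3*, *YPR148C* and *PRE2*, with the last at 0.93. All 5 lie on chromosome XVI, the chromosome of *HHO1*.

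Genes that work with histones stayed largely below the threshold, as most genes tested did. The lists held 9 regulators of histone genes, 16 chaperones, acetylation and assembly factors, 14 SWR1 complex genes, and *CSE4* and *SCM3*, the centromeric H3 variant and its chaperone. Beyond *SPT10*, none of these passed limma's adjusted test in any of the 14 comparisons, where 0% to 5.75% of all genes did. *CSE4* was at 23.8 FPKM in wild type, 35.8 in *rpd3* and 48.5 in *isw2 rpd3*, with a difference of 1.00 ± 0.55 in the last (limma adjusted p = 0.363). *SPT21*, the partner of *SPT10*, had an estimate of 0.82 ± 0.31 in Chd1-Ume6 in *rrp6* against Chd1-Ume6 in wild type (limma adjusted p = 0.188).

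Because core histone RNA is made in S phase, lists of cell cycle genes are given beside it, and their part in the histone values was not tested. In *rpd3* against wild type the 18 G1/S genes had a median of 0.06, the 14 G2/M genes 0.38 and the 14 M/G1 genes -0.22, where all genes had -0.09. In *isw2 rpd3* the medians were 0.66, 0.67 and -0.31 in the same order. The only cell cycle genes past the limma threshold in the 14 comparisons were *ASH1* (-1.35 ± 0.27, limma adjusted p = 0.0354) and *TEC1* (-1.92 ± 0.28, limma adjusted p = 0.0121), of the 14 M/G1 genes, in *isw2 rpd3* against wild type. In that comparison 3.8% of all genes passed. *ASH1* encodes a daughter-cell repressor and *TEC1* a filamentation factor.

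In *rrp6* against wild type 14 of 14 G2/M genes had higher estimates, with a median of 0.93, where 62.6% of all genes were higher. With the fusion added to *rrp6*, 14 of 14 had lower estimates, where 46.5% of all genes were lower. Their median was -0.51, and 13 of 14 were lower after scaling to a common sum. In that comparison 10 of 10 histone genes were lower. It uses the same *rrp6* columns as *rrp6* against wild type, with opposite sign, so the values of these comparisons are not independent. In Chd1-Ume6 in *rrp6* against *rrp6* the G1/S genes had a median of 0.06, which became -0.01 after quantile normalization. The M/G1 genes had a median of -0.28 there, with 11 of 14 lower. In *ume6* against wild type the G1/S median was -0.56, the G2/M median -0.18 and the M/G1 median 0.21, and the core histone median was -0.23. None of these cell cycle genes passed the limma threshold in the *rpd3*, *rrp6* or *ume6* comparisons named here, where 0.433% to 2.13% of all genes did. Genes of chromosome XVI other than *HHO1* had a median of 0.62 in *rrp6* against wild type. With the fusion added to *rrp6* their median was -0.41. The part of chromosome shifts in the G2/M values was not tested.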

How the data were processed

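The authors deposited log-scale FPKM values in 15 columns, log2 in the first table and in 6 of the workbook's sheets, per the file headers. The *ume6* sheet was read as log10 although the authors headed it log2, since its standard deviation was 0.311 times that of the other sheets and log10 values give 0.301. Tools named in the submitters' processing notes, without roles, are TopHat2, Cufflinks 2.2.1, Cuffdiff, SAMtools and CASAVA. The wild type column was read as a mean made by the authors: its FPKM at 5 decimals was whole, within 0.05, in 16.6% of 978 genes. That share was 33.2% after multiplying by 2 and 98.9% after multiplying by 6. The labels name 2 wild type libraries, so which values the mean covers is not known. The column entered the fit as 1 library.

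The values were returned to FPKM, and log2(FPKM + 1) was fitted with limma 3.58.1 in R 4.3.3 with a trend on abundance, so fold changes of low genes are understated. The fit took in 6241 genes with a value in all 15 columns and at least 1 FPKM in 2 or more. Its terms were 10 groups and the deposited table, leaving 4 residual degrees of freedom. Groups with 1 column were assumed to vary like the others. Adjusted p-values are Benjamini-Hochberg over all 6241 genes, with 0.05 as the limit. The design had assumed that each library had a column. The fit was tested on simulated data first. Of 66 genes given a difference of 1 log2 unit, 3 passed the limit in *rpd3* against wild type. In *ume6* against wild type 8 of 66 passed, and in Chd1-Ume6 in *rrp6* against *rrp6* 30 of 66. Most differences of that size were thus missed in each. At 2 log2 units 43, 45 and 57 of 67 passed, in the same order. Depth per library is unknown, and no interval for counting error is given.

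The members and gene lists were chosen with earlier results of these data known. Named genes are the 10 members, list genes past the limit, and the 5 genes most like the core mean. *CSE4*, *SPT21* and the genes most like *HHO1* were named after their values were seen. A chromosome was matched for 5757 of the 6241 genes through RefSeq. Every alternative is given in the closing section.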

Additional observations from a re-analysis of the deposited data

How the results depend on the processing

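Each of the 14 comparisons was repeated under 21 alternative settings. These were another pseudocount (0.1 or 5), no filter on low values, values in at least 12 columns, quantile normalization, no table term, a replicate block, and 10 fits that each left out 1 column. Scaling to a common sum or median ratio, a crossed block and centring on chromosomes were chosen after seeing the data. The count of histone genes past the limit was 0 in every comparison and setting, except for *ume6* against wild type, where leaving out a replicate gave 0 to 1. The 1 was *HHO1*, without either *rrp6* column.

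Over all histone genes and comparisons, each setting gave 140 values. Quantile normalization changed the sign of 32 of them and scaling to a common sum that of 24. Leaving out 1 column changed the sign of 1 to 20, the most without the first-table column of Chd1-Ume6 in wild type. In a subset of 40 single-gene differences, 5 values changed sign. Over the fits that left out 1 column, *HTA1* in Chd1-Ume6 in *ume6* against *ume6* ran from -0.64 to 0.0223, the latter without the workbook fusion column. In Chd1-Ume6 in *rrp6* against *rrp6*, *HHO1* ran from -0.91 to 0.0088, the latter without *rrp6* number 2, and *HTB1* from -0.42 to 0.0542, the latter without fusion column 1. *HHF1* in *isw2 rpd3* against wild type was 0.30 after quantile normalization and 0.15 after scaling to a common sum. The cause was not tested.

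Scaling to a common sum moved the median of all genes by -0.29 to 0.33. Relative to that median, the core histones stayed lower under it in *ume6* (-0.25), *rrp6* (-0.35), *isw2* (-0.05) and Chd1-Ume6 in wild type (-0.28), each against wild type. Quantile normalization gave 0.19, 0.17, 0.10 and 0.14 for the same 4. In *rpd3* against wild type the core median relative to all genes was -0.71 before and -0.52 after quantile normalization, and in Chd1-Ume6 in *rrp6* against *rrp6* -0.43 and -0.15. In Chd1-Ume6 in *rrp6* against Chd1-Ume6 in wild type, the core median ran from -0.55 to -0.09 over all settings, *HTA2* from -0.68 to -0.15 and *HTB2* from -1.03 to -0.49.

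The labels number the *rrp6* isolates, and same-numbered columns deviated apart (r = -0.34). That value rests on 1 difference per group, so it cannot show whether the numbers pair the columns. With the replicate block, and with the block crossed, 0 histone genes passed in every comparison. With 4 residual degrees of freedom and 1 wild type column, differences below about the widths of the intervals given could not be resolved.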
